A study of Drosophila melanogaster with 3 samples.

Results

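The 10 genes described here encode the core of the Drosophila Ras-MAPK cascade and the ETS transcription factors at its end, and the question is where the zinc finger protein Schnurri was bound in and around them. The adaptors are drk and Shc, the cascade is Ras85D, Raf, Dsor1 and rl, the ETS factors are aop and pnt, and the antagonists are sty and ed. A locus was taken as the span of the gene in the Ensembl BDGP6 annotation plus 10 kb on each side, and a peak belonged to it when its summit lay inside. These 10 of 13945 protein-coding genes held 41 of the 3586 peaks in the authors' reproducible list and 207 of the 30000 in the list from pooled replicates. The 3 replicate lists, with 30000 peaks each, placed 119, 220 and 233 summits in the 10 loci.

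The study mapped Schnurri (shn) by chromatin immunoprecipitation and sequencing in whole embryos of both sexes, collected 0 to 24 h after laying. All embryos came from a single transgenic line in which shn carries GFP at its C terminus, and the chromatin, sonicated to 200 to 800 bp, was pulled down with an anti-GFP antibody. The 3 samples are numbered biological replicates of 1 group, so there is no contrast between conditions, and a peak cannot be assigned to a cell type or an hour of development. Whether the line keeps an untagged shn is not given in the sources used here, and the authors' control was not analysed here.

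In flies a receptor tyrosine kinase on the cell surface, once active, recruits the SH2 adaptors drk and Shc, which bring Ras85D to its GTP-bound state. Ras85D activates the kinase Raf, Raf phosphorylates Dsor1 (the MEK of flies), and Dsor1 phosphorylates rl (the ERK of flies, also called Rolled). In the nucleus the active ERK turns on the ETS activator pnt (Pointed) and removes the ETS repressor aop (Anterior open, also called Yan), while sty (Sprouty) and the cell adhesion protein ed (Echinoid) restrain the pathway. Schnurri is best known as a partner of Mad and Medea in the response to Dpp, the BMP ligand that patterns the dorsal side of the embryo.

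Sequence around 7 summits is printed because the results return to them: the strongest site of all, sites that share a motif or a stretch of bases, and the promoter-proximal site of pnt. Each is the plus strand of dm6 (Release 6), at most 100 bases on either side of the summit, with annotated UTR bases left out, and it was read from the genome assembly and not from the embryos' reads. Of these, 3 hold the DNA replication-related element (DRE, TATCGATA), in capitals. They are the summit upstream of Shc at chr3L:9426795-9426995, the summit upstream of Ras85D at chr3R:9513068-9513239 and the only summit of the Dsor1 locus at chrX:9243476-9243676.
Shc: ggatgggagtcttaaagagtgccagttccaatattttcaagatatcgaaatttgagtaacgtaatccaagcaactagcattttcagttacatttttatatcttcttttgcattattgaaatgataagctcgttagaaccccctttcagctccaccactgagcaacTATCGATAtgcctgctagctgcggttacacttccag
Ras85D: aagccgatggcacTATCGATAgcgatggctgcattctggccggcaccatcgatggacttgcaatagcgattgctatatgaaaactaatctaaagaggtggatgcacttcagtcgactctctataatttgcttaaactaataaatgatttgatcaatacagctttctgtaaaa
Dsor1: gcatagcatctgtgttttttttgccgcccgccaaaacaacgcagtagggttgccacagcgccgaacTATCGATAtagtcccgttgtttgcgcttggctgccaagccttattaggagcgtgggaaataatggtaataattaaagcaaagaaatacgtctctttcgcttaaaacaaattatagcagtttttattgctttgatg

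The next 2 are intron summits of aop, at chr2L:2163562-2163762 (first) and chr2L:2161886-2162086 (second), with a shared stretch of 19 bases in capitals. The strongest Raf summit, at chrX:2297629-2297829, has no searched motif in the bases shown and therefore no capitals. In the pnt site at chr3R:23295442-23295642 the capitals are GAGA repeats (GAGAGAG or its complement CTCTCTC) and a GC-rich Mad site (GCCGNCG, here on the other strand).
aop first: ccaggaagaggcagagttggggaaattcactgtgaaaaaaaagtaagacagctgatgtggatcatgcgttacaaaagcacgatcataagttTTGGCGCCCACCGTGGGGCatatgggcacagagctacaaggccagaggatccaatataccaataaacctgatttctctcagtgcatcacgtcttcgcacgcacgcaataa
aop second: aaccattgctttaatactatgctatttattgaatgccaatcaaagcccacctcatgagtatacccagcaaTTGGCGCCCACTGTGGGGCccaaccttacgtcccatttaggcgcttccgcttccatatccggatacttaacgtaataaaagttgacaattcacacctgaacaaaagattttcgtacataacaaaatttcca
Raf: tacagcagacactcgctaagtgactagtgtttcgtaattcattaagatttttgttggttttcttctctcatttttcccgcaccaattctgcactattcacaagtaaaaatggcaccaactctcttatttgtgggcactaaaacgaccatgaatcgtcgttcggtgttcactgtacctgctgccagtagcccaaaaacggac
pnt: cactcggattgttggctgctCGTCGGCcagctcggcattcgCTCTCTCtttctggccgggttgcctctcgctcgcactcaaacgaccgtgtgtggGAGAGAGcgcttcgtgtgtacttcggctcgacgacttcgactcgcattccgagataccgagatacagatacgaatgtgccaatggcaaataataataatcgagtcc

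A reproducible summit lay within 1 kb of an annotated transcription start site (TSS) in 7 of the 10 genes: Shc, drk, Ras85D, Raf, aop, pnt and ed. Of all 13945 protein-coding genes, 2949 (21.1%) had such a summit. With the whole locus counted, 9 of the 10 genes held at least 1 reproducible summit, against 8045 genes (57.7%) in all. The 10 genes are long, with a median span of 23027 bp against 2166 bp for all genes, so the locus count had more room than in a typical gene. They have a median of 2 TSSs against 1, which gives the promoter count more room. With only the most upstream TSS of each gene, 60% of the 10 had a promoter summit, against 19.5% of all genes. With each summit given to its nearest TSS only, the shares were 70% and 14.6%. Whether length or the number of TSSs accounts for the differences was not tested. The genes without a summit within 1 kb were Dsor1, sty and rl, and the gene without a summit anywhere in its locus was rl.

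**Figure D1:**
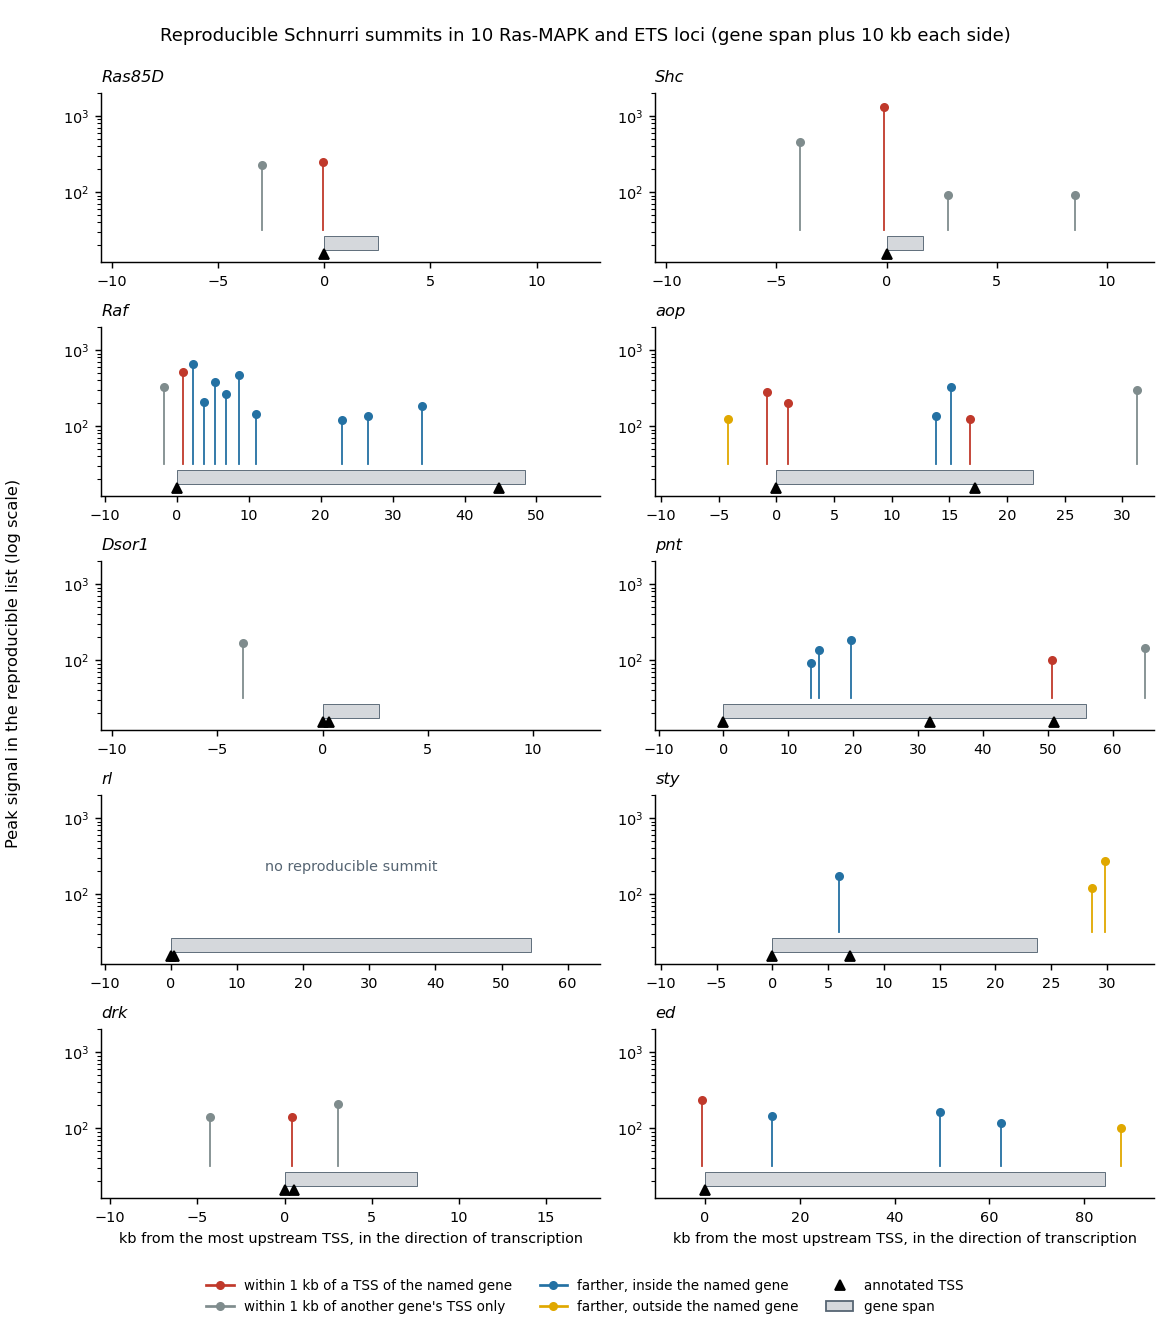
Each panel shows the locus of 1 gene, with kb from its most upstream TSS on the x axis (positive in the direction of transcription) and the signal of each reproducible summit on a log y axis. Grey boxes are gene spans, triangles are TSSs, and colours give the kind of place a summit lies in. Shc has the tallest summit at its start, Raf has a run of 7 summits behind its first TSS, and rl has none.

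The signal value printed for a peak is the authors' own and is used here only within its list, so a peak is followed between replicates by its rank, with 1 the strongest. The top list of a replicate is its 3586 strongest peaks, as many as the reproducible list holds. The reproducible list has signals of 91.6 to 2020 with a median of 142. Replicate 1 had 2385 peaks with a −log10 q of 2 or more, against 5289 in replicate 2 and 7213 in replicate 3. No 2 replicate lists had an identical peak. Read depth is unknown, so no counting interval is given for any value.

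Shc, an SH2 adaptor (FBgn0015296, 3L 9427010 to 9428671, plus strand), had the strongest peak of the 10 loci. Its summit lay 115 bp upstream of the TSS, in the sequence printed for Shc above, with a signal of 1331 and rank 9 of 3586 in the reproducible list. In the replicate lists it ranked 4, 14 and 18, a mean of 12 ± 7.21 (SD, n = 3), with signals of 524, 419 and 397 in replicates 1, 2 and 3. It stood near the top of all 3 lists. The same summit lies 137 bp from the TSS of Atat, which encodes an alpha-tubulin acetyltransferase, so it belongs to a shared start region and cannot be assigned to Shc alone. The other 3 summits of the Shc locus were all within 1 kb of a neighbour's start. The stronger of them, 170 bp upstream of aay (a phosphoserine phosphatase), had a signal of 454 and ranked 249, 172 and 168 in replicates 1, 2 and 3. A weak summit 20 bp from the start of MTF-1 (a metal-responsive transcription factor) had a signal of 92.9, close to the lowest in the list, and ranked 10662, 3330 and 3774.

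In drk, the other adaptor (FBgn0004638, 2R 13495222 to 13502841, minus strand), the promoter summit was weaker than in Shc. It lay 100 bp upstream of the internal TSS of 1 transcript and 448 bp downstream of the TSS of the other 4, with a signal of 139, and it ranked 2269, 1757 and 2640 in replicates 1, 2 and 3. All 3 ranks were inside the top lists. It also lies in the 5' UTR of mars, a mitotic spindle gene whose nearest TSS is 317 bp away. A stronger summit, 2543 bp downstream of the internal TSS in an intron common to all 5 transcripts, had a signal of 209 and ranked 1162, 1051 and 703, and it is 871 bp from a mars TSS. The last summit of the locus, 417 bp from the start of mEFTu1 and in an intron of mip120, had a signal of 138 and ranked 2255, 1479 and 4002.

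Ras85D, the small GTPase (FBgn0003205, 3R 9510561 to 9513067, minus strand), had its promoter summit 72 bp upstream of its only TSS. The signal was 249, and the summit ranked 748, 716 and 825 in replicates 1, 2 and 3, a mean of 763 ± 56.0 (SD, n = 3). The replicate signals were 65.8, 84.0 and 88.1. The start of the divergent neighbour Rlb1 is 188 bp from the summit. The other summit of the locus, with a signal of 229, lay 5 bp from the starts of Kdm3 (a histone demethylase) and CG8176 and 104 bp from that of mRpL47. It ranked 1269, 604 and 785, and replicate 2 and replicate 3 placed it above the Ras85D promoter while replicate 1 did not.

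Raf, the MAP kinase kinase kinase (FBgn0003079, X 2295466 to 2343870, plus strand), held 11 reproducible summits, which put it at the 99.97th percentile of all genes by count. Of these, 10 lay inside the gene, and 9 of those were in an intron of 1 of its 2 transcripts. From 875 bp downstream of the first TSS, 7 summits followed each other over 10151 bp, at gaps of 1388 to 2361 bp with a median of 1524.5 bp, against a median gap of 12894.5 bp between neighbours in the whole reproducible list. The 7 are the summits downstream of the first TSS and nearer to it than to the second. The wider gaps farther into the gene are left out, so the run is a chosen dense part of the locus. The strongest of the 7 summits, 2263 bp downstream of the TSS, is the Raf sequence printed above. It had a signal of 666 and ranked 96, 64 and 66 in replicates 1, 2 and 3, a mean of 75.3 ± 17.9 (SD, n = 3). The first of the run, in the 5' UTR 875 bp from the TSS, had a signal of 517 and ranked 110, 114 and 167, and its replicate signals were 161, 190 and 174. Another strong summit, 8665 bp downstream, had a signal of 467 and ranked 389, 99 and 179, with replicate 1 the lowest. The other 4 of the run had signals of 146 to 378. Farther into the gene, 3 more intron summits had signals of 120 to 184, and the nearest to the second TSS was still 10775 bp upstream of it. The only summit outside the gene, with a signal of 322, sits 266 bp upstream of CG2865 and ranked 373, 346 and 644. In all, 9 of the 11 Raf summits stood in every replicate's top list, and the other 2 were missing from the replicate 1 top list, where they ranked 3604 and 4883.

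**Figure D2:**
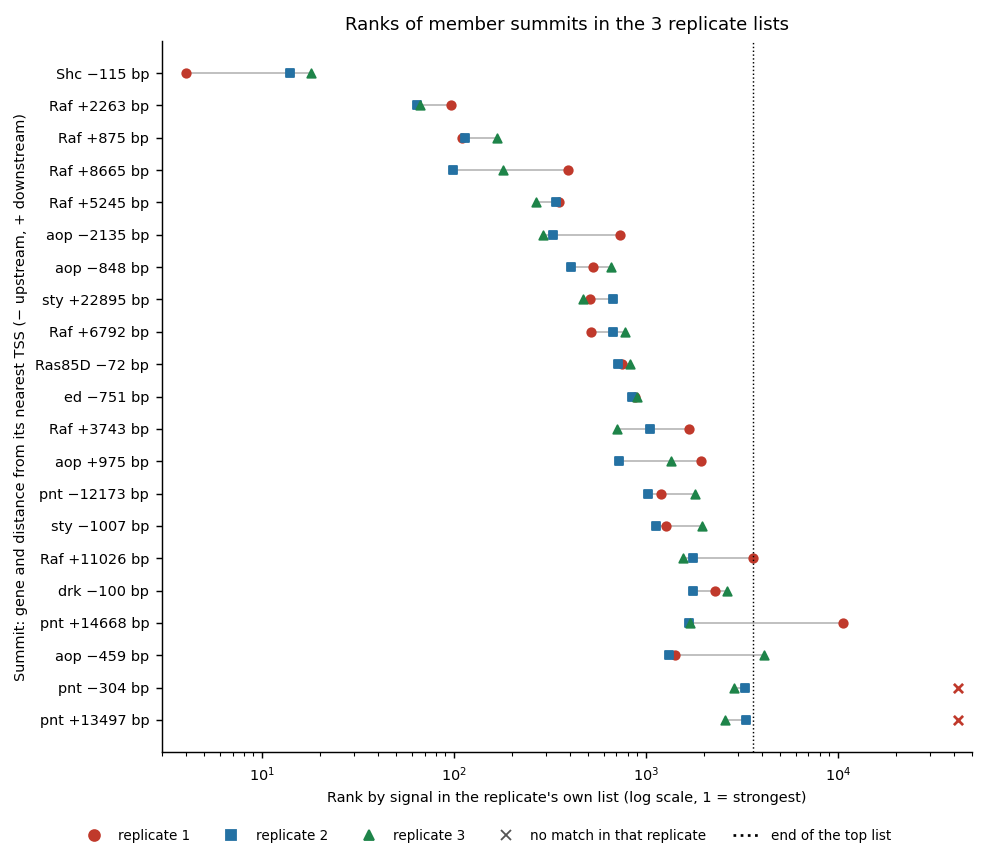
Each row is 1 reproducible summit, named by its gene and the distance from that gene's nearest TSS, and the x axis is its rank by signal in a replicate's own list on a log scale. Symbols stand for replicates 1, 2 and 3, crosses for a replicate without a matching peak, and the dotted line for the end of the top list at 3586. The Shc promoter ranks 4 to 18 and ed 847 to 891, while both weak pnt summits have no match in replicate 1.

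Dsor1, the MAP kinase kinase (FBgn0010269, X 9247342 to 9250037, plus strand), had a single reproducible summit in its locus, and it was not at its own start. That summit is 3766 bp upstream of Dsor1, 109 bp from the start of mxc (a histone locus body gene) and 241 bp from that of Larp7, and it holds the DRE printed above under Dsor1. Its signal was 168, and it ranked 1228, 2109 and 1172 in replicates 1, 2 and 3. Near the Dsor1 starts the pooled list had 3 weak peaks, the best of them 868 bp upstream with a signal of 44.2, rank 11785 and a −log10 q of 0.489. Replicate 1 had no peak there, and the best of replicates 2 and 3 ranked 18805 and 16847. A reproducible promoter peak was therefore not detected at Dsor1.

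For rl, the ERK itself (FBgn0003256, 2R 1071462 to 1125927, plus strand), no reproducible and no pooled summit fell in the locus. The nearest reproducible summit was 2940888 bp from the rl TSS that 6 of its transcripts use. Replicate 1 placed 11 summits in the locus, with ranks of 2390 to 21243, signals of 12.1 to 31.2 and a highest −log10 q of 1.99, while replicate 2 placed 1, at rank 25910, and replicate 3 placed 0. The same split held in the surrounding 1 Mb, which had 110 summits in replicate 1, 6 in replicate 2, 0 in replicate 3, 5 in the pooled list and 0 in the reproducible list.

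**Figure D3:**
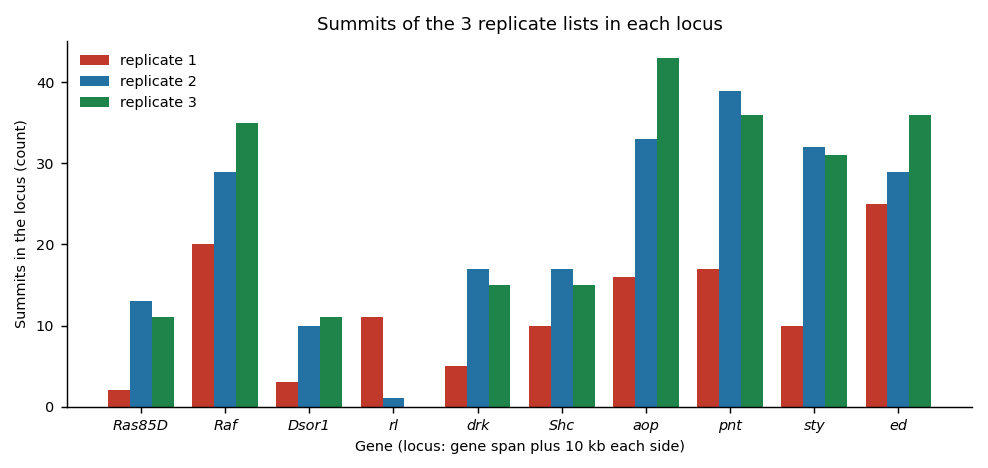
Bars give the number of summits that the lists of replicates 1, 2 and 3 (30000 peaks each) placed in each locus. Replicate 1 has the lowest bar in 9 loci, and in the rl locus it has 11 summits against 1 and 0.

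The ETS repressor aop (FBgn0000097, 2L 2156484 to 2178754, minus strand) held 7 reproducible summits, 3 of them within 1 kb of its TSSs. The strongest promoter summit, 848 bp upstream of the first TSS, had a signal of 283 and ranked 530, 406 and 653 in replicates 1, 2 and 3, a mean of 530 ± 124 (SD, n = 3). Its replicate signals were 78.9, 110 and 98.3. A summit 975 bp downstream of the same TSS had a signal of 201 and ranked 1919, 725 and 1342, and one 459 bp upstream of the internal TSS had 123 and ranked 1417, 1310 and 4105. The strongest of the whole locus was not a promoter summit. It lay in an intron, 2135 bp upstream of the internal TSS, with a signal of 324 and ranks of 734, 327 and 291. The remaining intron summit, 3385 bp upstream of the internal TSS, had a signal of 134, and the one 4201 bp upstream of the gene had 125. The last, with a signal of 297, is 32 bp from the start of Tbcd, a tubulin folding cofactor, past the 3' end of aop. The pooled list was densest here among the 10 loci, with 36 summits or 8.52 per 10 kb, at the 99.8th percentile.

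The strongest intron summit of aop and its weaker neighbour 459 bp upstream of the internal TSS contain the stretch capitalised in the 2 aop sequences. The copies are 19 bases long and differ at 1 position. They lie 9 bp before to 9 bp after the stronger summit, so centred on it, and 30 to 12 bp before the weaker in genome order. Of all 3586 windows of 301 bp around reproducible summits, 2 held the stretch with at most 1 difference, which are the 2 it was found in. The 6 chromosome arms held it at 2 places. It was found by comparing the 109 pairs of windows within a locus, so it was chosen after the sequences were seen, and no test was made of it. The longest stretch from the same comparison was a GAGA repeat of 21 bases in 2 windows of the Raf locus, which the arms held at 150 places.

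The ETS activator pnt (FBgn0003118, 3R 23290231 to 23346167, minus strand) held 5 summits, all weaker than the strongest of aop, and 2 of them remained without replicate 2 or without replicate 3, when a peak had to be in the top lists of both other replicates. Its only promoter summit, 304 bp upstream of the internal start used by 2 of its 4 transcripts, had a signal of 100 and rank 3116. It ranked 3262 in replicate 2 and 2866 in replicate 3, and replicate 1 had no peak within 1 kb of any pnt TSS, so this promoter rests on 2 of the 3 replicates. Its sequence, printed above, has 2 separate GAGA repeats and a GC-rich Mad site. The strongest pnt summit, 12173 bp upstream of another start in an intron of the long transcript, had a signal of 186 and ranked 1191, 1024 and 1799 in replicates 1, 2 and 3. Of the other intron summits, the stronger had a signal of 135 and ranked 10633, 1679 and 1683, and the weaker had 92.3 with no match in replicate 1. The fifth summit, with a signal of 143, lies 47 bp from the start of Cdc16, a subunit of the anaphase-promoting complex. Replicate 3 alone had a further promoter peak in its top list, 237 bp upstream of the middle start, at rank 2615. At 3 of the 5 pnt summits replicates 2 and 3 had the peak in their top lists and replicate 1 did not.

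The feedback inhibitor sty (FBgn0014388, 3L 3401153 to 3424935, minus strand) had its closest reproducible summit just outside the 1 kb limit. It lay 1007 bp upstream of the internal TSS, in an intron, with a signal of 175 and ranks of 1263, 1121 and 1952 in replicates 1, 2 and 3. The matching replicate summits were 996 bp upstream in replicate 1 and 889 bp upstream in replicate 2, inside the limit. Just inside it among the 10 genes were the summits of aop at 975 bp, Raf at 875 bp and aop at 848 bp. A pooled peak 50 bp downstream of the same TSS, with a signal of 77.1 and a −log10 q of 2.35, ranked 4613 and so was outside the reproducible list. Replicate 3 had a peak in its top list 31 bp upstream of that TSS, at rank 2779. The strongest summit of the locus lay past the 3' end of the gene and far from any start, with a signal of 273 and ranks of 509, 671 and 466, and a weaker one beside it had a signal of 121.

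The antagonist ed (FBgn0000547, 2L 4031377 to 4115749, plus strand) held 5 summits over the longest of the 10 genes. The promoter summit, 751 bp upstream of the only TSS, ranked 873, 847 and 891 in replicates 1, 2 and 3, a mean of 870 ± 22.1 (SD, n = 3). Its signal was 234 in the reproducible list and 60.4, 77.8 and 85.2 in the replicate lists. Inside the gene, 3 intron summits had signals of 143, 165 and 118, at 14192, 49607 and 62527 bp from the TSS, and each replicate held all 3 in its top list. A summit past the 3' end, with a signal of 102, is 1125 bp from the start of the scavenger receptor gene Sr-CIII.

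Counted in all, a promoter summit stood in the top lists of all 3 replicates in 6 of the 10 genes, Shc, drk, Ras85D, Raf, aop and ed, against 1715 of all genes (12.3%). In pnt the promoter summit was in the top lists of replicates 2 and 3 only. In the pooled list, where weak peaks are kept, 9 of the 10 genes had a summit within 1 kb of a TSS, all but rl, against 8740 of all genes (62.7%).

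Per length, the 10 loci spread widely. The reproducible list gave a median of 0.787 summits per 10 kb of locus in the 10 genes and 0.398 in all genes, and a median count of 3.5 and 1. Shc had the highest density, 1.85 per 10 kb, at the 97.7th percentile of all genes, followed by aop with 1.66 at the 96.6th and Raf with 1.61 at the 96.4th. Then came drk with 1.09, Ras85D with 0.889, sty with 0.685, pnt with 0.658, ed with 0.479, Dsor1 with 0.441 and rl with 0. The order at the top depends on weak summits. When peaks had to be in the top lists of 2 replicates, with the other left out, Shc kept 2 of its 4 summits whichever replicate was dropped, which is 0.923 per 10 kb, at the 90.2nd to 92.1st percentile. Under the same rule aop had 0.946 per 10 kb without replicate 1, 1.18 without replicate 2 and 1.42 without replicate 3, and Raf had 1.61, 1.32 and 1.32, so that Raf was densest without replicate 1 or 2 and aop without replicate 3. Of the 4 Shc summits, 3 belong to neighbours' starts, while 10 of the 11 Raf summits lie in Raf. The long genes pnt and ed are at the 98.9th percentile of counts but at the 73.5th and 68.3rd of densities.

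**Figure D4:**
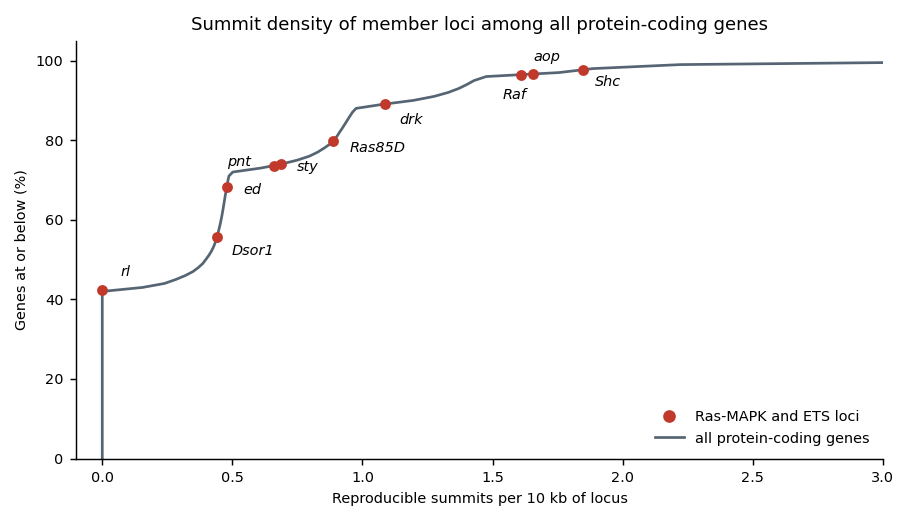
The curve gives, for all 13945 protein-coding genes, the percentage (y axis) with at most the number of reproducible summits per 10 kb of locus on the x axis, drawn up to 3 per 10 kb, and the red points are the 10 genes. Shc, aop and Raf are above the 96th percentile with all reproducible summits, and Shc is at 0.923 per 10 kb with any replicate left out, while ed, Dsor1 and rl lie lower on the curve.

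Of the 41 summits, 9 were within 1 kb of a TSS of the named gene, 10 were within 1 kb of a neighbour's TSS only, 18 were farther away inside the named gene, and 4 were farther away outside it. Their median signals were 234, 188, 170 and 123 in the same order. Together the 41 had a median signal of 175, against 142 for the 3586, and 26 of them (63.4%) were at or above that list's median. Raf alone held 11 of the 41 and 9 of these 26, and the values without Raf were not computed. The share within 1 kb of any TSS was lower in the 10 loci, 46.3%, than in the whole list, 65.1%, and 9 of the 22 distal summits were those in Raf introns. All 3 top lists held 29 of the 41 (70.7%), against 53.8% of the whole list. Replicate 1 held 33 (80.5%), replicate 2 held 39 (95.1%) and replicate 3 held 36 (87.8%) of the 41 in its top list. The shares of the whole list were 74.2%, 85.0% and 78.1%, in the same order of replicates. Replicate 1 had no match at all for 3 of the 41 and for 332 of the 3586. Among matched peaks, the replicate summit farthest from the reproducible summit was a median of 38 bp away, at most 277 bp, and within 50 bp at 28 of 41. Matching required the peaks to overlap, which limits this distance in advance, and replicates without a match were left out. The same distances were not computed for the whole list, so they do not measure how well positions repeat in these loci.

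The 9 promoter summits of the 10 genes had a median rank of 873, 725 and 891 in replicates 1, 2 and 3, and the other 2327 promoter-proximal summits had 1599, 1651 and 1749. The difference was −726, −926 and −858 places, a mean of −837 ± 102 (SD, n = 3), so the median of the 9 ranked higher in every replicate. This holds for the median only, and single summits such as that of drk ranked below the median of the other 2327. The SD is over replicates of the same 9 summits and not over genes. With a promoter window of 500 bp, which drops the summits of Raf, ed and 2 of aop, the difference was −149, −332.5 and 892 places, a mean of 137 ± 660 (SD, n = 3), so its direction differed between replicates. Among peaks of at least the median signal it was −160, −282 and −182, a mean of −208 ± 65.0 (SD, n = 3). Within the 10 loci, the 19 promoter-proximal summits had median signals of 49.5, 77.8 and 85.2 in replicates 1, 2 and 3, and the 22 distal summits had 40.0, 61.4 and 60.4. Of the 19, 10 were within 1 kb of a neighbour's TSS only, and 9 of the 22 lay in Raf introns. The log2 ratio was 0.31, 0.34 and 0.50, a mean of 0.38 ± 0.10 (SD, n = 3). It was −0.017 with the 500 bp window and −0.033 when only the gene spans were counted, so neither its direction nor that of the rank difference holds under every definition. No p is given for either value, since the genes were chosen with results known.

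In 32 other genes of the pathway, 12 (37.5%) had a reproducible summit within 1 kb of a TSS and 23 (71.9%) had one in the locus, against the 21.1% and 57.7% of all genes given above. With a replicate left out, so that a peak had to be in the top lists of both others, the promoter count was 7 (21.9%, against 14.9% of all genes) without replicate 1, 4 (12.5%, against 13.1%) without replicate 2 and 5 (15.6%, against 15.2%) without replicate 3. Without replicate 2 or replicate 3 the share in the pathway list was therefore close to that of all genes. Among the receptor tyrosine kinases, which start the cascade, 1 of 7 had a promoter summit (htl, an FGF receptor, in the top list of 1 replicate). Of the adaptors and exchange factors 2 of 3 had one, the phosphatase csw, in 3 top lists, and the scaffold protein dos, in 1. The scaffolds had 1 of 3, and the RasGAPs and small GTPases had 3 of 5, with Rap1 and Ras64B each in 1 top list. The phosphatases and other negative regulators had 1 of 6, which was aos (Argos, the secreted EGFR antagonist), in 2 top lists. Both nuclear regulators had one, cic (the HMG-box repressor Capicua) in 3 top lists and edl (an inhibitor of Yan and Pointed) in 2. So did 2 of 6 other ETS genes.

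The strongest of these was at RasGAP1, a GTPase-activating protein for Ras, 718 bp upstream of its TSS, with a signal of 560 and ranks of 106, 108 and 98 in replicates 1, 2 and 3. That is above every promoter summit of the 10 genes except that of Shc. The ETS gene Ets21C followed, 182 bp downstream of its TSS, with a signal of 517, but its ranks were 4935, 156 and 36, so replicate 1 put it outside its top list. At cic the summit had a signal of 279 and ranks of 653, 520 and 504. Next came Ets96B, whose summit is nearer to the start of CG5805, ave, csw, Rap1 and aos, at ranks 1580 to 2584 of the reproducible list.

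Motifs were searched on both strands in the 301 bp around each summit. DRE was in 3 of the 41 windows (7.32%), against 6.44% of all 3586, and in the whole list it was mostly a promoter motif, in 9.59% of promoter-proximal and 0.56% of distal windows. In the sequences of Shc, Ras85D and the Dsor1 locus printed above it lies 65 to 72 bp after, 58 to 51 bp before and 34 to 27 bp before the summit in genome order. The GAGA repeat was in 5 windows (12.2%), against 8.45%, at the promoter summits of drk and pnt, in an intron of aop and at 2 summits of the Raf locus. The GC-rich Mad site was in 7 windows (17.1%), against 9.62%: 2 in Raf introns, 2 at drk, and 1 each in aop, ed and pnt. The ETS core (ACCGGAA) was in 0 windows, against 2.51%, and the longer Schnurri-Mad-Medea silencer element was in 0, against 0.530%. These are matches of letters in a window, and no difference between the 41 and the whole list was tested. GC content had a median of 39.5% in the 41 windows and 38.9% in all.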

How the data were processed

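ChIP-seq peak lists from 3 biological replicates of 0 to 24 h shn-GFP embryos were used. Per the notes deposited with the lists, the authors made, for each replicate and for the pooled replicates, a list of peaks and background to feed a test of reproducibility between replicates (irreproducible discovery rate, IDR), and an optimal IDR-thresholded list, called reproducible here. Each peak's signal value, its −log10 q value and its summit offset, a position inside the peak, are as the authors deposited them. The sources used here do not give the aligner, the peak caller or the IDR threshold. Only lists on dm6 were used, and positions are 1-based.

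Summits were joined to the 13945 protein-coding genes of Ensembl release 115 (BDGP 6.54, 19607 TSSs) on 6 arms in Python 3.11.15 (numpy 2.4.6, pandas 2.3.3; figures with matplotlib 3.10.9). Peaks matched when they overlapped by at least 1 bp. For the medians by replicate, an unmatched peak was placed after the last rank or at the lowest signal. Counting and matching were tested on simulated peaks. An exact sign-flip test was planned for 2 medians, and 3 replicates allow it no p below 0.25, so none is printed. The 10 genes, the pathway list, motifs and tests were chosen with earlier results of these data known. The list's Gap1 is RasGAP1 in the annotation. The text names all 10 genes with their strongest promoter and locus summits, up to 8 pathway genes with the strongest promoter summits, and neighbours whose TSS is nearer. Other genes (htl, dos, edl, Ras64B) are named to say which made up a count. Alternatives changed the promoter window, locus margin, peak threshold, matching, top list, TSS choice and replicates. The values of 1 summit in the Shc locus are not reported here.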

Additional observations from a re-analysis of the deposited data

How the results depend on the processing

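For counts with a replicate left out, a reproducible peak had to be in the top lists of both others. The reproducible list itself was made from all 3 replicates, so the left-out replicate still helped choose the peaks, and the rule is also stricter. The count of genes with a promoter summit was 6 to 7 of 10 with each replicate left out, against 7, beside 14.9% of all genes without replicate 1, 13.1% without replicate 2 and 15.2% without replicate 3, and 9 held a summit in the locus under each of these. Of all genes, 53.8%, 58.4% and 53.8% held no summit in the locus without replicates 1, 2 and 3, against 42.3% with all reproducible summits. With a 500 bp window the promoter count was 5 (18.5% of all genes), with 5 kb 9 (38.2%), and with only peaks of at least the median signal 5 (11.9%). The 41 summits became 24 in the gene spans alone and 26 of at least the median signal, and 30 to 34 with a replicate left out. Genes with a promoter summit in all top lists fell to 3 with the 500 bp window, against 6 (beside 12.3% of all genes). The share of all genes in that setting was not computed at 500 bp. With a replicate left out, the top-list count is the same as the promoter count above, 6 to 7, beside the same shares of all genes. The pathway list had 5 genes (15.6%, beside 11.9% of all genes), against 12, among peaks of at least the median signal, and 4 to 7 with a replicate left out: 7 (21.9%) without replicate 1, 4 (12.5%) without replicate 2 and 5 (15.6%) without replicate 3, the last 2 close to the shares of all genes above. The rank difference was 137 ± 660 (SD over 3 replicates) with the 500 bp window and −208 among peaks of at least the median signal. Averaged over 2 replicates, with all the same peaks kept, it was −892 to −792. The log2 ratio of promoter to distal signal was −0.017 with the 500 bp window and −0.033 in gene spans alone. Averaged over 2 replicates in the same way, the ratio was 0.32 to 0.42. Both of these ranges are means of the replicate values given above, so they are no check on the choice of peaks. By locus, Shc had 2 summits, against 4, with any replicate left out, aop had 4, against 7, without replicate 1, and pnt had 2, against 5, without replicate 2 or 3. The causes of these changes were not tested. No paired analysis was possible because all samples belong to 1 group. Without read counts, the depth behind a peak is unknown, and a gene without a reproducible peak is not shown to be unbound.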

Other observations

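While windows around the summits were read, the letters TTTCAGTGC were noticed. They do not occur on either strand of the sequences printed above. They were present within 150 bp of 4 of the 41 summits, in an intron of Raf, in an intron of drk, past the 3' end of sty and past the 3' end of ed, and 3 of these 4 lie more than 1 kb from any TSS. In the whole reproducible list 66 of 3586 windows (1.84%) held them, with 1.58% of promoter-proximal and 2.32% of distal windows. Windows of the same length centred 1000 bp away held them in 14 of 3586 (0.390%). The letters were chosen after the sequences were seen, so these are descriptions with no test, and no factor is named for them.

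The Shc and Ras85D promoter summits lie between divergent starts (Atat and Rlb1), and the drk summit overlaps the start region of mars. At aop, Raf, pnt and ed the promoter summits have no other gene's TSS within 1 kb, and they lie 304 to 975 bp from the nearest start. At Shc, Ras85D and drk the distance is 72 to 115 bp. For drk this is measured to the internal TSS of 1 transcript. From the TSS of the other 4 drk transcripts it is 448 bp, inside the range of the first 4 genes.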
